A study of Drosophila melanogaster with 12 samples.

Results

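Heads of Drosophila melanogaster flies labelled cabut RNAi were compared with heads of control flies, both kept for 18 h without sucrose. The comparison rests on 3 of the 12 libraries of the series, chosen by their labels: 2 libraries labelled cabut RNAi and 1 control library at 0 percent sucrose. The other 9 libraries, 6 labelled cabut RNAi and 3 controls, came from flies given 25, 50 or 100 percent sucrose by their labels. They serve here as a second comparison of the same labels. All flies had a Canton-S background, and RNA was measured by sequencing of 3' ends after poly(A) selection. Flies labelled cabut RNAi carried Tim-gal4 and UAS-cbt RNAi, a pair in which the Gal4 protein, made where the promoter of timeless is active, switches on a transgene directed at cabut (symbol cbt). Control flies are labelled +/cbtE1-UAS-cbt RNAi, a genotype that names no driver. What cbtE1 stands for is not given in the sources used here. Because the driver separates the labels, effects of the RNAi, of the driver and of the genetic background it came with cannot be told apart. Any effect of cbtE1, which the control label names, cannot be told apart from these either. The labels give neither sex nor age.

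Cabut is a zinc-finger transcription factor whose gene is switched on by dietary sugar through the sugar-sensing factor Mondo, the fly counterpart of mammalian ChREBP, and its partner Mlx. It is known as a repressor of metabolic genes in the fly, among them those of phosphoenolpyruvate carboxykinase, and it links sugar sensing to the output of the circadian clock. The heads measured here hold eye, brain, glia, muscle, cuticle and a layer of fat body, and the timeless promoter is active in only some of these cells, so RNA of cells without the driver is in every library.

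The 2 libraries labelled cabut RNAi held 1019390 and 1829111 reads and the control library 875904, within a range of 511478 to 1859247 over the 12 libraries. Values below are normalized reads, each library's reads having been scaled by a single factor before deposit. Log2 fold changes are given ± their standard error (SE), and adjusted p-values are limma's unless another tool is named. Of 13757 genes, 6551 had a mean of at least 10 normalized reads over the 12 libraries and were tested. Whether the libraries of a group were grown separately is not stated, so a p-value measures only the spread between libraries, which may be technical. With 1 control library, no spread could be measured on that side, and the spread was taken from all the other libraries of the series. An exact permutation test of 2 libraries against 1 cannot give a p below 0.333.

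The targeted gene was measured first. Cabut (CG4427, 2L:476437-479046, build dm3) had 102 and 127 normalized reads under the cabut RNAi label and 93.5 in the control. Both libraries with the RNAi label thus lay above the control, by a log2 fold change of 0.28 ± 0.26 that did not pass the test (adjusted p = 0.692). On sucrose the difference was 0.42 ± 0.15 in the same direction (adjusted p = 0.0769), with 126 to 202 normalized reads in the RNAi-labelled libraries and 98.5 to 139 in the controls. A lower count of cabut reads in whole heads was therefore not seen under the RNAi label. Whether reads from the transgene were counted for cabut could not be told here, so the counts do not measure how well the RNAi worked. Every direction below is that of the libraries so labelled, called RNAi-labelled libraries, against the library labelled control.

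Without sucrose, 203 of the 6551 genes tested differed between the labels at an adjusted p under 0.05, 3.1 percent. Of these, 75 were higher in the libraries labelled cabut RNAi (1.14 percent) and 128 were lower (1.95 percent). These shares of all genes tested are the ones to set beside the counts of the lists below. The largest rises included genes of detoxification enzymes, and the lower genes included stress peptides, yolk proteins and a block of 48 cytosolic ribosomal protein genes, beside 80 other genes. A change beyond 2-fold was reached by 59 of the higher and 57 of the lower genes. After quantile scaling, which forces all libraries to 1 distribution, the calls were 74 higher and 58 lower, and 122 of them were shared with the 203. With edgeR on the recovered reads 190 genes were called, 46 higher and 144 lower, of which 168 were shared. The 2 libraries labelled cabut RNAi each carried weight: 84 genes were called without replicate 1 and 106 without replicate 2, and 59 genes were called whichever of 11 libraries was left out. Called genes lay on every large chromosome arm, from 2.31 percent of the genes tested on X to 4.17 percent on 2R, and none of the 13 mitochondrially encoded genes was called.

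The highest rises belonged to cytochrome P450 genes, whose products oxidise fatty acids, hormones and foreign compounds, and to a set of genes known mainly by number. Cyp6a8 (CG10248, 2R:10774673-10776514) had 242 and 223 normalized reads in the RNAi-labelled libraries and 16.6 in the control. Both values stood far above the control and close to each other, and the log2 fold change was 3.72 ± 0.23 (adjusted p = 4.83e-09). Cyp4e3 (CG4105, 2L:9748012-9750020) had 919 and 1098 normalized reads against 131 in the control, a log2 fold change of 2.93 ± 0.22 (adjusted p = 5.79e-08). Cyp4p1 had 145 and 161 normalized reads against 28.2, a log2 fold change of 2.40 ± 0.21 (adjusted p = 5.80e-07). In these 3 genes the replicates lay close together and the control was several times lower. Cyp6a23 (CG10242, 2R:10763338-10765159) had 98.6 and 110 normalized reads against 20.5, a log2 fold change of 2.29 ± 0.33 (adjusted p = 4.33e-04).

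Its neighbour on the chromosome moved the other way. Cyp6a17 (CG10241, 2R:10761477-10763064) had 4.44 and 9.80 normalized reads in the RNAi-labelled libraries and 178 in the control, a log2 fold change of -4.55 ± 0.62 (adjusted p = 2.59e-04), the largest fall among the named genes. The same split held with sucrose, where Cyp6a17 had 0.876 to 6.98 normalized reads in the 6 RNAi-labelled libraries and 191 to 199 in the 3 controls. Cyp6a17 and Cyp6a23 are adjacent members of 1 gene family, and how reads that match more than 1 copy were counted is not given in the sources used here, so the level of each is uncertain.

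Over the whole P450 list, 47 of 83 genes were tested, of which 7 were higher, 1 was lower and 39 did not pass the test, with a median log2 fold change of 0.041 beside -0.011 over all genes tested. The 3 remaining higher members were Cyp6a2, Cyp6a21 and Cyp6w1, with log2 fold changes of 0.83 ± 0.20, 1.22 ± 0.29 and 1.10 ± 0.20 (adjusted p = 0.0214, 0.0226 and 0.00334). Fewer P450 genes were called higher without replicate 1 and without replicate 2 at 0 percent. Cyp6a8, Cyp4e3, Cyp4p1 and Cyp6a23 kept their calls in both fits. Among other detoxification genes, 1 of 25 glutathione transferase genes tested was higher (median 0.114). That member, GstE3, an enzyme that joins glutathione to reactive compounds, had 103 and 131 normalized reads against 33.3, a log2 fold change of 1.77 ± 0.25 (adjusted p = 4.15e-04). Of 11 UDP-glycosyl transferase genes tested, also 1 was higher (median 0.132). Ugt36E1 had 34.7 and 52.1 normalized reads against 8.96, a log2 fold change of 2.13 ± 0.38 (adjusted p = 0.00316).

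**Figure D1:**
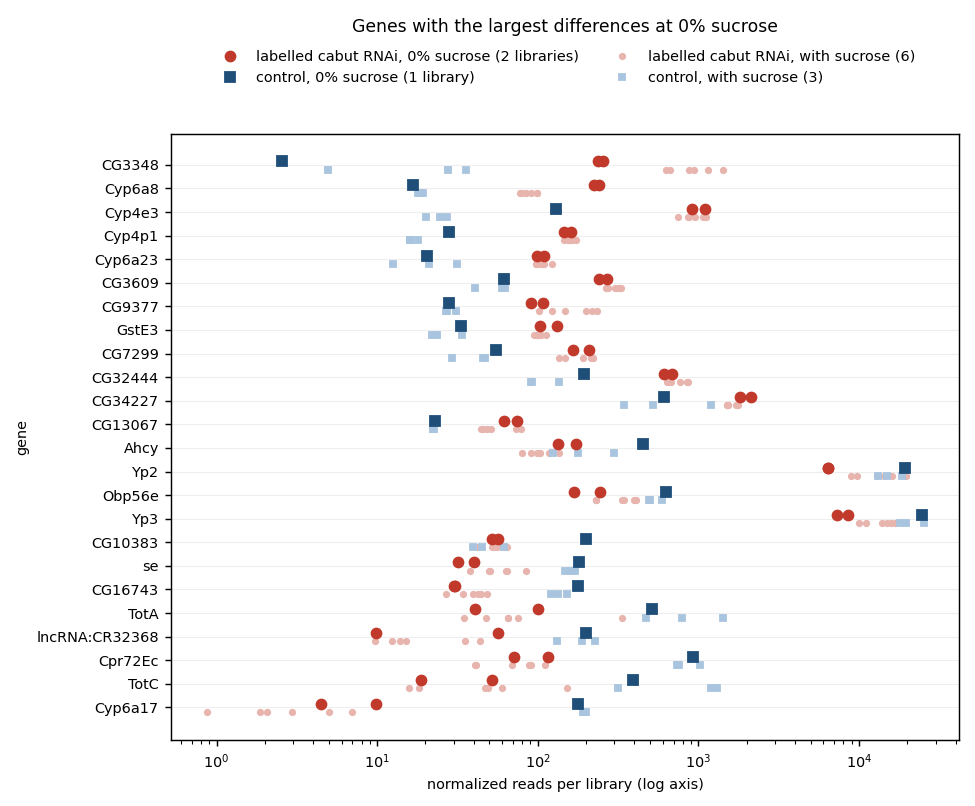
Normalized reads (log axis) of the 12 genes with the largest rises and the 12 with the largest falls at 0 percent sucrose, among called genes with a mean of at least 50 in the 3 libraries. Points are single libraries, circles labelled cabut RNAi and squares controls, large and dark at 0 percent sucrose, small and pale with sucrose. CG3348, at 256 and 238 against 2.56, and Cyp6a17, at 4.44 and 9.80 against 178, mark the ends.

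CG3348 (3R:23117253-23117911) showed the largest rise, with 256 and 238 normalized reads in the RNAi-labelled libraries and 2.56 in the control. The control value stands for 2 reads, so the ratio of scaled reads, 95.4, has a counting interval from 26.3 to 789 (95 percent, counting error only). The log2 fold change was 6.12 ± 0.64 (adjusted p = 9.66e-06). On sucrose the same gene had 630 to 1420 normalized reads under the RNAi label and 4.96 to 35.8 in the controls, so the label groups were as far apart there.

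The other genes known by number among the 12 largest rises with a mean of at least 50 were CG3609, CG9377, CG7299, CG32444, CG34227 and CG13067, with log2 fold changes between 1.51 and 2.04. CG3609 had 269 and 242 normalized reads against 61.5 in the control, a log2 fold change of 2.04 ± 0.23 (adjusted p = 2.22e-05). CG32444 had 683 and 612 against 193, a log2 fold change of 1.74 ± 0.23 (adjusted p = 1.34e-04). Each of these 6 genes was above the control in both libraries, and each was also higher under the RNAi label with sucrose. The calls of 3 of them depended on a single library: leaving out replicate 1 gave adjusted p = 0.0628 for CG9377, leaving out replicate 2 gave 0.0838 for CG13067, and CG34227 came to 0.0561 and 0.0854 without one or the other.

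Large falls were also measured in the Turandot list, small secreted peptides that build up in the blood of stressed flies. TotC (3R:16698710-16699310) had 18.7 and 52.1 normalized reads in the RNAi-labelled libraries and 391 in the control, a log2 fold change of -3.60 ± 0.90 (adjusted p = 0.0313). TotA had 40.9 and 101 against 517, a log2 fold change of -2.99 ± 0.81 (adjusted p = 0.0467). The 2 libraries labelled cabut RNAi differed more than 2-fold from each other in both genes, yet neither reached the control. Of 8 Turandot genes 4 were tested, with 2 called lower and all 4 below zero (median -3.11); TotM had -3.24 ± 1.17 (adjusted p = 0.164). Both calls were lost without replicate 1 (adjusted p = 0.227 for TotC and 0.290 for TotA), without the control library at 100 percent sucrose (0.0627 and 0.0979) and with DESeq2 (0.0839 and 0.193), and edgeR kept TotC (0.0265) but not TotA (0.0763). With robust limma the adjusted p was 0.262 and 0.306, and TotA was also lost without replicate 2 at 25 percent (0.0577) and without replicate 1 at 50 percent (0.0581).

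Other immune lists held few calls. Of 11 antimicrobial peptide genes tested, limma, edgeR and DESeq2 called none, 0 had an unadjusted limma p under 0.05, and the median was -0.772. Metchnikowin (Mtk), an antifungal peptide, had 284 and 373 normalized reads against 1455, a log2 fold change of -2.16 ± 1.18 (adjusted p = 0.423). Drsl5, the member with the smallest p, had 267 and 306 against 382, a log2 fold change of -0.42 ± 0.22 (adjusted p = 0.396). Among Bomanins, recognition proteins and serpins, 1 of 35 tested was lower (median -0.166). That gene, BomS4, a short peptide induced by Toll signalling, had 221 and 331 normalized reads against 530, a log2 fold change of -0.97 ± 0.20 (adjusted p = 0.00751; 0.0965 without replicate 1). By limma, edgeR and DESeq2 none of 13 heat shock and chaperone genes tested was called (2 at an unadjusted limma p under 0.05; median 0.086), stv having the smallest p with -0.63 ± 0.24 (adjusted p = 0.204).

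A cuticle gene gave one of the largest falls. Cpr72Ec (CG4784, 3L:16358991-16360426), a cuticle protein gene, had 71.1 and 117 normalized reads in the RNAi-labelled libraries and 928 in the control. Neither replicate came near the control, and the log2 fold change was -3.34 ± 0.44 (adjusted p = 1.34e-04). With sucrose the groups stood just as far apart, 40.9 to 110 against 741 to 1018. Of 16 cuticle protein genes tested, 2 were lower and 1 was higher (median -0.171), beside 1.95 and 1.14 percent of all genes tested. Cpr65Au rose by 1.02 ± 0.21 on the log2 scale (adjusted p = 0.00766; 0.0889 without replicate 2), and Cpr57A had -1.07 ± 0.29 (adjusted p = 0.0443; 0.240 and 0.0790 without one or the other replicate).

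Odorant-binding proteins are secreted carriers of small molecules in the sense organs. Of 17 tested, 3 were lower and none was higher (median -0.183), beside 1.95 and 1.14 percent of all genes tested. Obp56e had 168 and 243 normalized reads against 628 in the control, a log2 fold change of -1.63 ± 0.29 (adjusted p = 0.00316). Obp49a fell by 1.31 ± 0.22 (adjusted p = 0.00202) and Obp56h by 1.28 ± 0.27 (adjusted p = 0.0109; 0.0814 without replicate 1) on the log2 scale.

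Further large falls were in CG16743, with 30.2 and 30.4 normalized reads against 178 and a log2 fold change of -2.52 ± 0.29 (adjusted p = 2.94e-05), and in CG10383, described with the sucrose comparison. The long non-coding RNA lncRNA:CR32368 had 9.77 and 56.2 normalized reads against 201, a log2 fold change of -3.02 ± 0.75 (adjusted p = 0.0271). Its replicates differed more than 5-fold, and without replicate 1 the adjusted p was 0.270.

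Eye pigment genes were called in both directions, 1 lower and 1 higher. The gene sepia (se), for an enzyme of the red drosopterin pigments, had 40.0 and 31.96 normalized reads against 181 in the control, a log2 fold change of -2.30 ± 0.32 (adjusted p = 2.69e-04). The gene white (w), for a transporter of pigment precursors, had 40.9 and 25.3 against 6.40, a log2 fold change of 2.16 ± 0.51 (adjusted p = 0.0200; 0.161 without replicate 1). The control value of white stands for 5 reads, and edgeR did not call it (adjusted p = 0.0578). Of 16 eye pigment genes tested these were the 2 called, 12 had a negative log2 fold change, and the median was -0.223.

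The cytosolic ribosomal protein genes, which code for the protein parts of the ribosome, were lower as a block. Of 93 such genes, 85 were tested, 48 were called lower and none higher, all 85 had a negative log2 fold change, from -1.12 to -0.061, and the median was -0.599 beside -0.011 over all genes tested. RpL11 (2R:15329854-15331024) had 1338 and 1214 normalized reads in the RNAi-labelled libraries and 2768 in the control, a log2 fold change of -1.12 ± 0.17 (adjusted p = 8.20e-04). RpS21 had 1742 and 1780 against 3326, a log2 fold change of -0.92 ± 0.15 (adjusted p = 0.00105). In RpS18 and RpS2 the fall was by 0.86 ± 0.14 and by 0.84 ± 0.14 on the log2 scale (adjusted p = 0.00105 and 0.00123). The replicates nearly coincided and the control lay well above them.

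Counted as a share of all reads, cytosolic ribosomal protein genes took 22.0 and 21.6 percent in the libraries labelled cabut RNAi and 27.0 percent in the control. The plot of read shares shows the same gap on sucrose, 20.6 to 22.8 percent against 26.8 to 28.8 percent, with no overlap of labels. The number of calls depended on scaling and on both replicates: with quantile scaling 4 were called and the median was -0.109, edgeR called 53, and without replicate 1 or 2 the calls were 21 and 19 with medians of -0.594 and -0.612. A share of reads is itself a scaling by the library's total, so it cannot settle the loss of calls with quantile scaling.

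**Figure D2:**
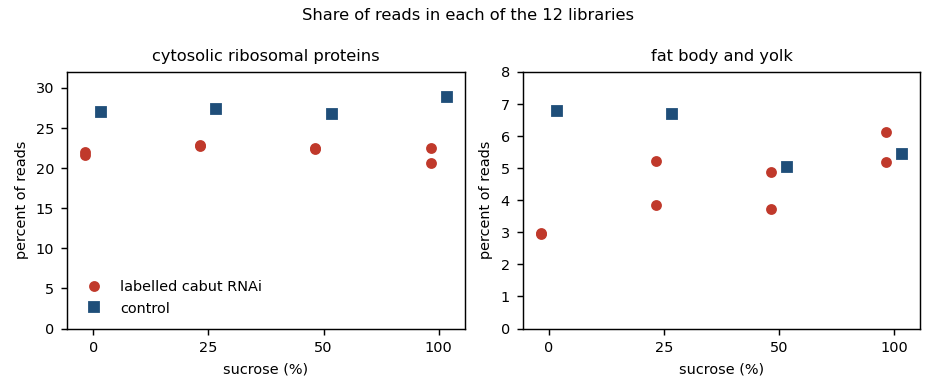
Percent of all reads that fell on cytosolic ribosomal protein genes (left) and on fat body and yolk genes (right), by sucrose percentage, 1 point per library. Ribosomal protein genes took 22.0 and 21.6 percent under the RNAi label and 27.0 percent in the control at 0 percent sucrose, and the labels did not overlap at any percentage; fat body and yolk genes took 2.99 and 2.93 percent against 6.79 percent at 0 percent, both RNAi-labelled libraries lay below the control at 25 and 50 percent too, and the control lay between them at 100 percent.

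Some lists of genes that serve the ribosome also held calls, beside 1.95 percent of all genes tested called lower. Of 41 translation initiation and elongation factor genes tested, 35 had a negative log2 fold change, 3 were called lower and none higher (median -0.340). The elongation factor subunit eEF1beta had 586 and 605 normalized reads against 1131, a log2 fold change of -0.92 ± 0.15 (adjusted p = 0.00105). Another subunit, eEF1gamma, had -0.86 ± 0.19 (adjusted p = 0.0136; 0.0804 without replicate 2), and the initiation factor eIF2A had -1.14 ± 0.22 (adjusted p = 0.00568; 0.0522 without replicate 2).

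Of 16 ribosome biogenesis genes tested, 11 had a negative log2 fold change and 2 were called lower (median -0.514). These were nop5 and Fib (fibrillarin), which act on the small nucleolar RNPs that modify ribosomal RNA. Their log2 fold changes were -1.502 ± 0.37 and -1.21 ± 0.32 (adjusted p = 0.0258 and 0.0385), and both calls were lost without replicate 1 (adjusted p = 0.123 and 0.181) and without replicate 2 (0.0820 and 0.0838). By limma, edgeR and DESeq2 none was called among 72 mitochondrial ribosomal protein genes (median -0.069), 26 aminoacyl-tRNA synthetase genes (0.029), 33 proteasome genes (-0.139), 65 genes of the respiratory chain and ATP synthase (-0.049) or 13 mitochondrially encoded genes (0.196). An unadjusted limma p under 0.05 was reached by 7, 3, 1, 1 and 1 of them. Their members with the smallest p were mRpL27 (0.95 ± 0.29, adjusted p = 0.0928), ArgRS (1.30 ± 0.52, adjusted p = 0.222), Rpt2 (-0.51 ± 0.21, adjusted p = 0.237), SdhD (0.56 ± 0.19, adjusted p = 0.128) and ND4L (1.12 ± 0.43, adjusted p = 0.193).

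**Figure D3:**
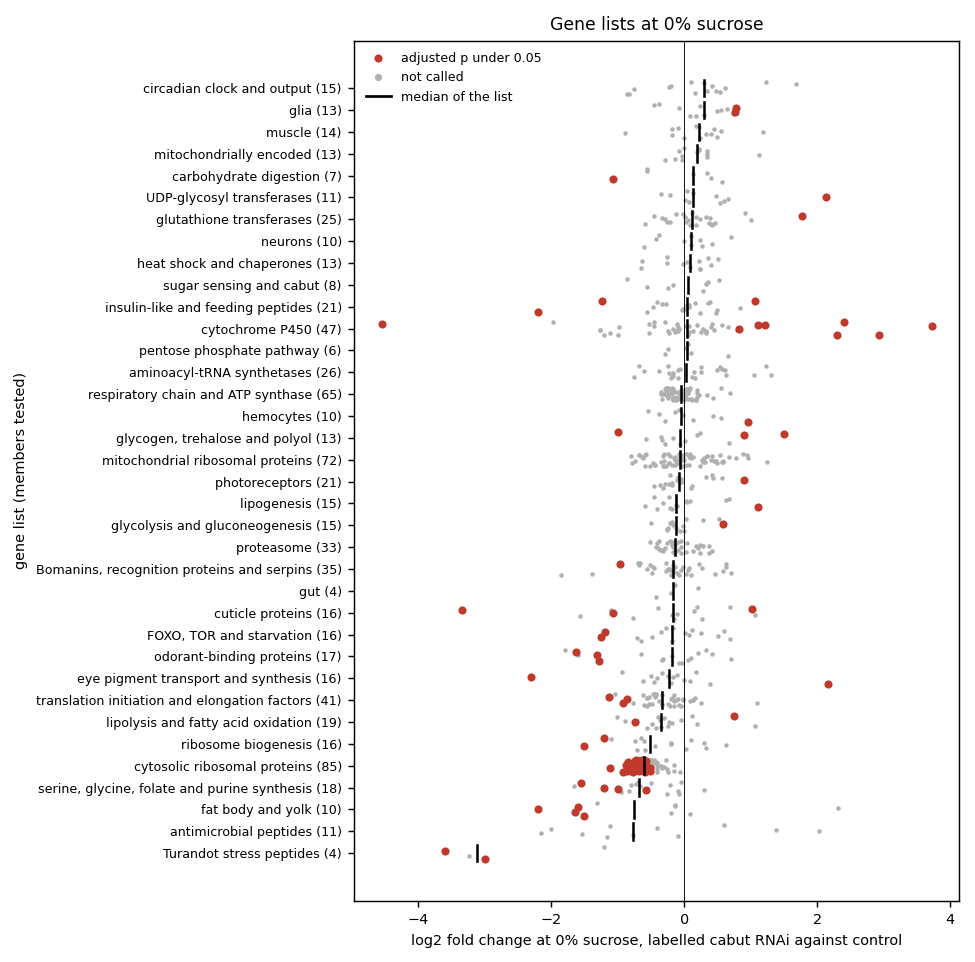
Log2 fold change at 0 percent sucrose (libraries labelled cabut RNAi against the control) of each tested gene in the 36 lists with at least 4 tested members, ordered by the list's median (black bar). Red points are genes called by limma: 48 of 85 cytosolic ribosomal protein genes lie to the left, and called P450 genes lie on both sides.

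Not every listed gene reached the level tested. Tested were 25 of 36 glutathione transferase, 11 of 35 UDP-glycosyl transferase, 11 of 20 antimicrobial peptide, 16 of 124 cuticle protein and 17 of 52 odorant-binding protein genes in the table. For markers the numbers were 21 of 21 photoreceptor, 13 of 14 glial, 10 of 13 neuronal, 14 of 17 muscle, 10 of 12 hemocyte, 10 of 14 fat body and yolk and 4 of 31 gut genes. Of the testis list 59 of 60 genes were below that level, and 48 of those were at 0 in all 3 libraries. The RNAs roX1 and roX2 were looked for by name, but no gene matched, so they were not analysed here.

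Sugar-handling genes changed in single members. None of the 8 sugar sensing genes tested was called by limma, edgeR or DESeq2 (2 at an unadjusted limma p under 0.05; median 0.056). The member with the smallest p was sugarbabe (sug), a zinc-finger factor induced by sugar, with 48.9 and 40.7 normalized reads against 82.0 and a log2 fold change of -0.86 ± 0.33 (adjusted p = 0.194). Mondo, the sugar sensor itself, had 0.35 ± 0.28 (adjusted p = 0.639) and its partner bigmax (Mlx) -0.56 ± 0.22 (adjusted p = 0.220). Of 15 glycolysis and gluconeogenesis genes tested, 1 was higher (median -0.130). That gene, the aldolase gene Ald1, had 729 and 796 normalized reads against 507, a log2 fold change of 0.59 ± 0.16 (adjusted p = 0.0428). The Ald1 value belongs to 1 transcript row: with the distinct rows of the gene summed, it was -0.12 (adjusted p = 0.796), and without replicate 1 or 2 the adjusted p was 0.0974 and 0.202.

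In the list of glycogen, trehalose and polyol genes, 2 of 13 tested were higher and 1 was lower (median -0.066). Akr1B, an aldo-keto reductase, had 553 and 570 normalized reads against 197, a log2 fold change of 1.504 ± 0.17 (adjusted p = 2.94e-05). Glycogen phosphorylase (Glyp), which releases glucose units from glycogen, had 255 and 290 against 146, a log2 fold change of 0.89 ± 0.20 (adjusted p = 0.0161; 0.0965 without replicate 2). Phosphoglucomutase (Pgm1), which interconverts glucose 1-phosphate and glucose 6-phosphate, had 433 and 384 against 815, a log2 fold change of -0.998 ± 0.23 (adjusted p = 0.0200; 0.0583 and 0.108 without one or the other replicate). Neither limma nor edgeR nor DESeq2 called any of 6 pentose phosphate pathway genes (1 at an unadjusted limma p under 0.05; median 0.038), the first enzyme of the pathway, Zw, having 0.65 ± 0.26 (adjusted p = 0.224). Of 7 carbohydrate digestion genes tested, 1 was lower (median 0.135): the maltase gene Mal-B2, with 203 and 299 normalized reads against 519 and a log2 fold change of -1.07 ± 0.24 (adjusted p = 0.0160; 0.156 without replicate 1).

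Lipid genes gave single calls, beside 3.1 percent of all genes tested called in either direction. Of 15 lipogenesis genes tested, 1 was higher (median -0.118). Gpdh1, the cytosolic glycerol 3-phosphate dehydrogenase, had 269 and 236 normalized reads against 117, a log2 fold change of 1.11 ± 0.25 (adjusted p = 0.0177; 0.118 without replicate 1). Among 19 genes of lipolysis and fatty acid oxidation tested, 1 was lower (median -0.357). That gene, wal, a subunit of the electron transfer flavoprotein, had 419 and 476 normalized reads against 748, a log2 fold change of -0.74 ± 0.17 (adjusted p = 0.0164; 0.125 without replicate 1).

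One-carbon and purine genes leaned to lower values. Of 18 tested in the list of serine, glycine, folate and purine synthesis, 4 were lower, none was higher, 17 had a negative log2 fold change, and the median was -0.679. Paics, an enzyme of de novo purine synthesis, had 339 and 442 normalized reads against 771, a log2 fold change of -0.99 ± 0.19 (adjusted p = 0.00585; 0.0788 without replicate 1). Ahcy, which clears S-adenosylhomocysteine after methylation reactions, had 174 and 135 against 452, a log2 fold change of -1.56 ± 0.35 (adjusted p = 0.0164; 0.101 without replicate 2). Gart, another purine enzyme, had -1.20 ± 0.29 (adjusted p = 0.0233; 0.216 without replicate 1), and awd, a nucleoside diphosphate kinase, had -0.58 ± 0.15 (adjusted p = 0.0348; 0.137 and 0.118 without one or the other replicate). In all 4 genes both libraries labelled cabut RNAi were below the control.

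Of 16 genes of the FOXO, TOR and starvation list tested, 2 were lower (median -0.178). Thor, the fly 4E-BP that holds back translation and is switched on by FOXO in starved flies, had 391 and 315 normalized reads against 804, a log2 fold change of -1.19 ± 0.18 (adjusted p = 7.16e-04). InR, the insulin receptor and also a FOXO target, had 16.9 and 25.8 against 51.2, a log2 fold change of -1.25 ± 0.33 (adjusted p = 0.0375; 0.262 without replicate 1). The control library stood above both others in each gene.

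Hormone and feeding peptide genes were called in both directions, 1 higher and 2 lower of 21 tested (median 0.041). Over all genes tested the shares were 1.14 and 1.95 percent. Corazonin (Crz), a stress-related neuropeptide, had 40.9 and 41.2 normalized reads against 19.2, a log2 fold change of 1.06 ± 0.29 (adjusted p = 0.0497), a call that edgeR did not make (adjusted p = 0.0774). Limostatin (Lst), a hormone that restrains insulin release, had 130 and 156 against 338, a log2 fold change of -1.24 ± 0.27 (adjusted p = 0.0149; 0.108 without replicate 1). The satiety peptide gene fit had 24.0 and 15.5 against 92.2, a log2 fold change of -2.20 ± 0.44 (adjusted p = 0.00692; 0.0633 without replicate 2). Crz had an adjusted p of 0.171 without replicate 1 and 0.168 without replicate 2.

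None of 15 circadian clock and output genes tested was called by limma, edgeR or DESeq2, 6 had an unadjusted limma p under 0.05, and the median was 0.304. The clock repressor vrille (vri) had 40.0 and 46.9 normalized reads against 17.9, a log2 fold change of 1.23 ± 0.38 (adjusted p = 0.0956). Timeless (tim), whose promoter drives the Gal4 here, had 24.9 and 34.0 against 52.5, a log2 fold change of -0.83 ± 0.31 (adjusted p = 0.187). The clock neuropeptide Pdf had 61.3 and 83.5 against 122, a log2 fold change of -0.76 ± 0.25 (adjusted p = 0.114).

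The marker lists show what the heads contained. The 3 yolk protein genes, which the fat body and ovary of females express, were lower under the RNAi label. Yp1 (X:9947885-9949531) had 10438 and 10204 normalized reads against 29288 in the control, a log2 fold change of -1.505 ± 0.23 (adjusted p = 5.69e-04). Yp2 had 6375 and 6450 against 19360, a log2 fold change of -1.59 ± 0.30 (adjusted p = 0.00490). Yp3 had 7344 and 8496 against 24704, a log2 fold change of -1.64 ± 0.24 (adjusted p = 4.65e-04). In all 3 genes the replicates lay close together well below the control. With fit, 4 of 10 fat body and yolk genes tested were lower (median -0.758). The list took 2.99 and 2.93 percent of reads against 6.79 percent. Not all of its members moved so: the lipid carrier gene apolpp had 1938 and 2234 normalized reads against 2392 (-0.20 ± 0.15, adjusted p = 0.585), and the storage protein gene Lsp2 had 163 and 426 against 52.5 (2.31 ± 0.69, adjusted p = 0.0807). In whole heads, fewer cells of a type and less RNA per cell cannot be told apart. The labels give no sex, so a different share of females cannot be told apart from these either.

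On sucrose the values of Yp2 overlapped between labels. The gene had 8939 to 19544 normalized reads in the 6 RNAi-labelled libraries and 13150 to 18410 in the controls, a log2 fold change of -0.23 ± 0.17 (adjusted p = 0.465). The test of the difference between the comparisons did not pass for Yp1, Yp2 or Yp3 (adjusted p = 0.294, 0.270 and 0.294).

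Markers of other head cells gave the following counts. Of 21 photoreceptor genes tested, 1 was higher (median -0.084): the blue-sensitive rhodopsin Rh5, with 190 and 252 normalized reads against 117 and a log2 fold change of 0.90 ± 0.24 (adjusted p = 0.0425; 0.266 without replicate 2). Of 13 glial genes tested, 2 were higher (median 0.302). These were nrv2, a subunit of the sodium pump, at 0.78 ± 0.18 (adjusted p = 0.0200), and Eaat1, a glutamate transporter, at 0.76 ± 0.21 (adjusted p = 0.0492), while the glial identity gene repo had 0.09 ± 0.28 (adjusted p = 0.933). Without replicate 1 the glial calls were lost (adjusted p = 0.0747 for nrv2 and 0.0658 for Eaat1), and without replicate 2 likewise (0.0932 and 0.274). Of 10 hemocyte genes tested, 1 was higher (median -0.049): Hml, a clotting factor of blood cells, at 0.96 ± 0.26 (adjusted p = 0.0443; 0.147 and 0.165 without one or the other replicate).

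Limma, edgeR and DESeq2 called none of 10 neuronal (median 0.106), 14 muscle (0.227) and 4 gut genes (-0.167), with 2, 2 and 1 at an unadjusted limma p under 0.05. The single tested genes of the ovary and eggshell, testis and male dosage lists were not called either, and none had an unadjusted p under 0.05. Gad1 had the smallest p of the neuronal genes (0.70 ± 0.26, adjusted p = 0.184), sls of the muscle genes (-0.89 ± 0.27, adjusted p = 0.0842) and Npc2a of the gut genes (-0.43 ± 0.19, adjusted p = 0.289). The single genes were Vml (-0.40 ± 0.43, adjusted p = 0.749), Mst84B (0.54 ± 0.46, adjusted p = 0.662) and msl-2 (0.15 ± 0.75, adjusted p = 0.958). Of 17 ovary and eggshell genes 16 were under the level tested, at 1.55 normalized reads or less, and 8 of them were at 0 in all 3 libraries.

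At 0 percent sucrose, shares of reads were higher under the RNAi label in several marker lists. In the libraries labelled cabut RNAi, photoreceptor genes took 4.63 to 4.91 percent of reads against 4.08 in the control, glial genes 0.293 to 0.298 against 0.220, muscle genes 0.308 to 0.320 against 0.224, and neuronal genes 0.098 to 0.101 against 0.076. The photoreceptor rise was not list-wide: 14 of the 21 genes tested had a negative log2 fold change (median -0.084). On sucrose the photoreceptor shares overlapped between labels, 4.34 to 5.10 percent against 3.93 to 4.54, and glial, muscle and neuronal shares did not. A share also depends on all other genes, and ribosomal protein, fat body and yolk genes took smaller shares under the RNAi label at 0 percent. The part of these lists in the differences above was not tested.

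The log2 fold changes of the second comparison used none of the 3 libraries, but its p-values rest on the same fit and estimate of spread. It asked whether the same genes differed on sucrose. There, 6 libraries labelled cabut RNAi against 3 controls gave 827 called genes (12.6 percent), 361 higher (5.51 percent) and 466 lower (7.11 percent); the median SE was 0.195 on sucrose and 0.338 without. Of the 203 genes called without sucrose, 197 had the same sign on sucrose, 97.0 percent, beside 62.3 percent of all genes tested. The 203 were selected for differences large beside a spread that both tests share, so these percentages do not compare like with like. The calls shared with the same sign numbered 163, which is 80.3 percent of the calls without sucrose and 19.7 percent of those on sucrose; none was called with the opposite sign and 40 were not called on sucrose. Across genes, Pearson's r of the log2 fold changes was 0.468 over the 6551 genes and 0.875 over the 203, a description in which genes are not independent and the estimate of spread is shared.

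**Figure D4:**
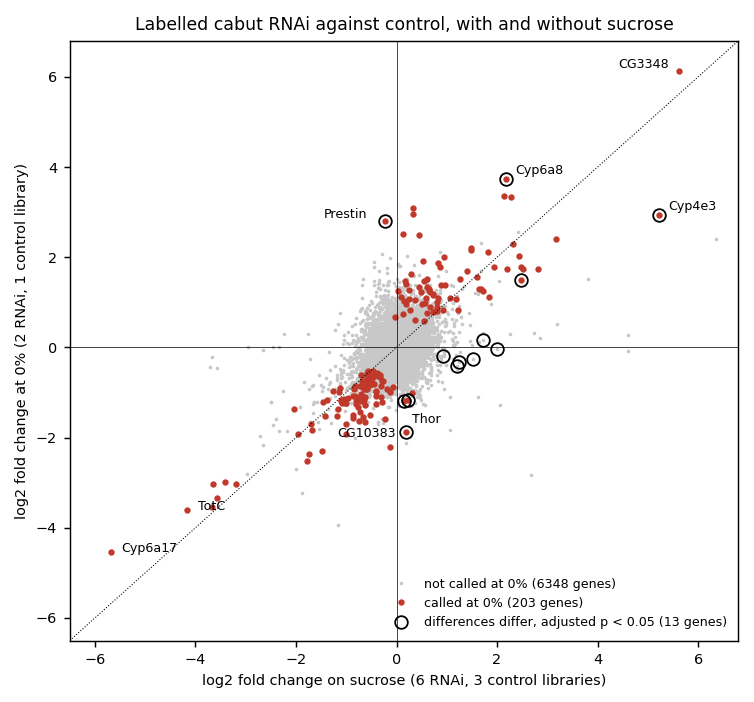
Log2 fold change of each of the 6551 genes on sucrose (x axis, 6 libraries labelled cabut RNAi and 3 controls) and without sucrose (y axis, 2 and 1 libraries). The 203 genes called without sucrose (red) lie mostly along the dotted line of equal change, with CG3348 and Cyp6a17 at its ends; circles mark the 13 genes whose differences themselves differed.

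A test of the difference between the comparisons called 13 genes (0.198 percent), 2 positive (0.0305 percent) and 11 negative (0.168 percent), where positive means that the label difference was higher without sucrose. The count at an unadjusted p under 0.05 was 490. With edgeR, 9 genes were called and 8 were shared. It fell to 5 and 4 genes without replicate 1 or 2 of the 0 percent libraries labelled cabut RNAi, to 6 without replicate 2 at 100 percent or replicate 1 at 50 percent, to 8 without replicate 2 at 25 percent, and to 7 without the control at 25 percent. Cyp4e3, CG10383, Pepck1 and AcCoAS were called whichever of the 11 libraries was left out.

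Among these, Pepck1 and AcCoAS showed no label difference past the test without sucrose and one past it on sucrose. Of the 15 glycolysis and gluconeogenesis genes tested, 1, Pepck1, was called for the difference. Pepck1 (CG17725, 2R:14424272-14426924), the phosphoenolpyruvate carboxykinase named above as a known cabut target, had 1608 and 1511 normalized reads in the RNAi-labelled libraries and 1853 in the control at 0 percent, a log2 fold change of -0.25 ± 0.21 (adjusted p = 0.656). On sucrose it had 797 to 1290 normalized reads in the RNAi-labelled libraries and 357 to 383 in the controls, a log2 fold change of 1.52 ± 0.12 (adjusted p = 2.66e-08). The control without sucrose was thus the highest of all 12 libraries and the controls with sucrose the lowest. The difference of the differences was -1.77 ± 0.24 (adjusted p = 0.00146).

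AcCoAS, which makes acetyl-CoA from acetate, had 367 and 395 normalized reads against 507 in the control at 0 percent (-0.41 ± 0.20, adjusted p = 0.335). On sucrose the libraries labelled cabut RNAi had 457 to 659 and the controls 230 to 256, a log2 fold change of 1.21 ± 0.11 (adjusted p = 2.95e-07). The difference of the differences was -1.62 ± 0.23 (adjusted p = 0.00147). Irp-1B, an iron regulatory protein of the aconitase family, and Prx6b, a peroxiredoxin, had the same order, with differences of -1.56 ± 0.32 and -2.03 ± 0.40 (adjusted p = 0.0462 for both) and log2 fold changes of -0.33 ± 0.28 and -0.03 ± 0.35 without sucrose (adjusted p = 0.656 and 0.981).

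**Figure D5:**
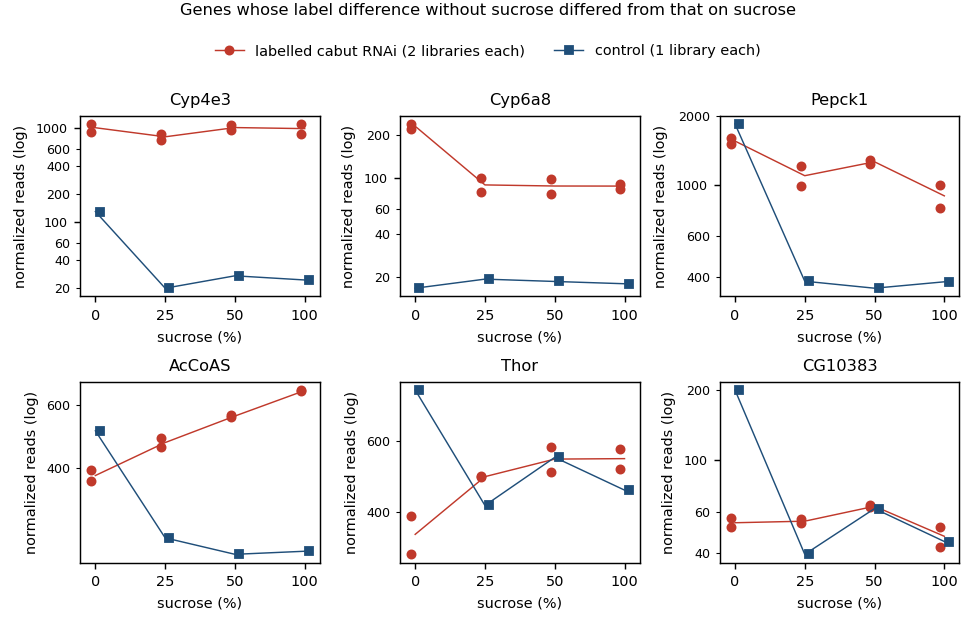
Normalized reads (log axis) at each sucrose percentage for 6 of the 13 genes, 2 libraries labelled cabut RNAi and 1 control per percentage, with lines through the group means. The control at 0 percent is the highest control in 5 of the panels, such as Pepck1 at 1853 against 357 to 383 with sucrose, and in Cyp6a8 it is the libraries labelled cabut RNAi that are highest at 0 percent, at 242 and 223.

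In the P450 genes Cyp4e3 and Cyp6a8, both among the largest rises, the label difference changed with sucrose in opposite directions. For Cyp4e3 the libraries labelled cabut RNAi had 746 to 1109 normalized reads on sucrose, much as without, while the controls had 20.1 to 27.3 in place of 131. Its label difference was 2.93 ± 0.22 without and 5.22 ± 0.13 with sucrose, a difference of -2.29 ± 0.25 (adjusted p = 1.01e-04). For Cyp6a8 the controls stayed between 16.6 and 19.3 throughout, and the libraries labelled cabut RNAi had 77.0 to 99.5 on sucrose against 242 and 223 without. Its label difference was larger without sucrose, by 1.54 ± 0.27 (adjusted p = 0.0148), a call lost with edgeR (adjusted p = 0.117), without replicate 1 (0.154) and without replicate 2 (0.0791). Akr1B had a label difference of 1.504 ± 0.17 without and 2.48 ± 0.10 with sucrose (adjusted p of the difference 0.0462).

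Other genes were lower under the RNAi label only in the 0 percent comparison, with the difference itself past the test. Thor had 391 and 315 normalized reads against 804 without sucrose and 490 to 580 against 416 to 548 with it, a difference of -1.35 ± 0.21 (adjusted p = 0.00448; 0.0650 without replicate 2). CG10383 had 51.5 and 56.2 against 200 without sucrose, a log2 fold change of -1.87 ± 0.28 (adjusted p = 5.69e-04), and 42.6 to 64.1 against 39.4 to 61.9 with it, a difference of -2.06 ± 0.33 (adjusted p = 0.00448). In both genes the control library at 0 percent stood above every other library. CG18858 had the same order, 56.9 and 72.7 normalized reads against 146, and 43.4 to 53.7 in the controls with sucrose, a difference of -1.40 ± 0.28 (adjusted p = 0.0462) that was lost in 9 of 11 fits without 1 library.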

How the data were processed

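Poly(A) 3' RNA-seq of fly heads was deposited as 1 table of 21081 transcript rows and 12 library columns. The authors deposited a normalized signal per row. Within each library 100 percent of values were multiples of a single step (tolerance 0.01), so reads were recovered by division. Bowtie, TopHat and build dm3 come from the submitters' processing notes; counting, strand use and normalization were not given in the sources used here, so antisense and overlapping genes could not be told apart. Rows were joined by CG or CR number (13596 of 14011 matched a symbol in RefSeq names), keeping the row with the highest mean. Coordinates are the table's, counted from 1.

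Genes with a mean of at least 10 were compared by limma 3.58.1 in R 4.3.3, with its intensity trend, on the scale log2(value + 1), which understates changes of low genes. Over 12 libraries, 4 group means were fitted: each label without and with sucrose, pooling the percentages, so the spread also holds differences between percentages. P-values were adjusted over all genes (Benjamini-Hochberg, threshold 0.05). edgeR 4.0.16 and DESeq2 1.42.0 were run on recovered reads. The methods were also run on simulated reads with known changes. Those reads gave every library the same spread for a gene, so they cannot show how far the single control library itself deviates. Between replicates the chi-square over its degrees of freedom was 2.89 to 6.23, above counting noise, and none were merged.

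Genes were named by rule: cbt; the 12 largest called changes in each direction with a mean of at least 50 at 0 percent; 6 in each direction for the difference between comparisons; and, from each of 39 lists, up to 4 called members, or the member with the smallest p. The members and lists were chosen with earlier results of these data known. Genes outside the rule were chosen after their values were seen, namely Mondo, bigmax, Mtk, TotM, tim, Pdf, repo, apolpp, Lsp2, Cyp6a2, Cyp6a21, Cyp6w1 and CG18858. No sequence is printed, and 1 called gene is not reported here.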

Additional observations from a re-analysis of the deposited data

Results flagged for a closer look

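In 13 genes the label difference without sucrose differed from that on sucrose by limma's test of the difference itself; values are log2 differences ± SE, negative where the difference was lower without sucrose. They were -2.29 ± 0.25 for Cyp4e3 (adjusted p = 1.01e-04), -2.06 ± 0.33 for CG10383 (0.00448), -2.03 ± 0.40 for Prx6b (0.0462), -1.77 ± 0.24 for Pepck1 (0.00146), -1.62 ± 0.23 for AcCoAS (0.00147) and -1.56 ± 0.32 for Irp-1B (0.0462). For CG8654 the value was -1.54 ± 0.29 (adjusted p = 0.0250), for CG18858 -1.40 ± 0.28 (0.0462), for Thor -1.35 ± 0.21 (0.00448), for CG3036 -1.12 ± 0.21 (0.0300) and for Akr1B -0.98 ± 0.20 (0.0462). The 2 positive genes were Cyp6a8 at 1.54 ± 0.27 (adjusted p = 0.0148) and Prestin, an anion transporter gene, at 3.02 ± 0.62 (0.0462).

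Each of these tests uses the single control library at 0 percent. In Cyp6a8 the controls stayed between 16.6 and 19.3 normalized reads, and the RNAi-labelled libraries differed, with 242 and 223 at 0 percent and 77.0 to 99.5 with sucrose. Prestin had 14.2 and 15.5 normalized reads in the RNAi-labelled libraries and 1.28 in that control, which is 1 read; the ratio of scaled reads was 11.7 with a counting interval from 2.001 to 473, and edgeR did not call the difference (adjusted p = 0.305). CG8654 had 118 and 107 normalized reads against 99.9 without sucrose and 101 to 131 against 26.9 to 42.0 with it. CG3036 had 253 and 267 against 297 without sucrose and 237 to 316 against 133 to 143 with it.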

How the results depend on the processing

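Of the 2020 values that 82 named genes took under the alternatives at 0 percent, 1795 kept their direction and side of the threshold, 219 lost the call, 2 gained it and 4 changed sign; of 311 values for the 13 genes of the difference test, 207 were kept and 104 lost the call. The sign changes were Prx6b (0.016) and Pepck1 (0.046) with quantile scaling, Ald1 (-0.122) with summed rows, and msl-2 (-0.147, against 0.44 without replicate 2) without replicate 1 at 0 percent. The count of higher genes, 75, became 46 with edgeR, 34 without limma's trend and 39 with only the 3 libraries; that of lower genes, 128, became 19 without the trend, 69 with only the 3 libraries and 58 with quantile scaling. The count for the difference, 13, became 0 without the trend, where 509 genes had an unadjusted limma p under 0.05; edgeR called 9 and DESeq2 16. Leaving out 1 library gave 33 to 94 higher genes, 51 to 152 lower genes and 4 to 16 for the difference; the control at 0 percent could not be left out. On sucrose every alternative gave counts within 1.5 times the main ones. The causes were not tested.

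With the replicate number as a block, 81 genes were higher, 153 lower and 9 called for the difference. The numbers did not pair the libraries: correlations of replicate deviations between concentrations ran from -0.112 to 0.143. Depth limits genes with few control reads, such as CG3348 (2 reads), white (5) and Prestin (1).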

Other observations

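Genes called without sucrose outside the lists and rule above were looked up after their values were seen. They are single genes and stand for no group; in the immune lists above 0 of 11 antimicrobial peptide genes and 1 of 35 Bomanins, recognition proteins and serpins were called by limma. The antibacterial peptide gene Listericin had 110 and 102 normalized reads against 254 in the control, a log2 fold change of -1.25 ± 0.24 (adjusted p = 0.00509). Sting, a sensor of cyclic dinucleotides in antiviral defence, had 5.33 and 4.12 against 28.2 (-2.36, adjusted p = 0.0338). Tep4, a complement-like protein gene, had 76.4 and 89.2 against 155 (-0.90 ± 0.22, adjusted p = 0.0272; 0.171 without replicate 1 and 0.0536 without replicate 2). In all 3 genes both libraries lay below the control.

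Other called genes had a range of roles. Pdh, the photoreceptor dehydrogenase gene of eye pigment cells, had 1002 and 1481 normalized reads against 2719, a log2 fold change of -1.16 ± 0.18 (adjusted p = 8.12e-04). Calmodulin (Cam) had 1817 and 1471 against 3063 (-0.91 ± 0.17, adjusted p = 0.00381). The chitinase gene Cht6 had 705 and 819 against 2231 (-1.55 ± 0.38, adjusted p = 0.0268; 0.147 without replicate 1 and 0.0738 without replicate 2). On the higher side, trol, the fly perlecan of basement membranes, had 58.6 and 67.5 against 24.3 (1.34 ± 0.23, adjusted p = 0.00199). Jheh1, a juvenile hormone epoxide hydrolase, had 400 and 373 against 159 (1.28 ± 0.20, adjusted p = 0.00104). The photolyase gene phr had 24.9 and 19.6 normalized reads against 1.28, a control value that is 1 read.

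Tdh and Gcat, single genes of successive steps of threonine breakdown, were called in opposite directions. Tdh, threonine dehydrogenase, had 112 and 118 normalized reads against 232 (-1.005 ± 0.26, adjusted p = 0.0335), and Gcat, which takes the next step, had 70.2 and 68.1 against 32.02 (1.09 ± 0.27, adjusted p = 0.0279). Without replicate 1 the adjusted p was 0.151 for Tdh and 0.137 for Gcat, and without replicate 2 it was 0.0965 and 0.0978.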
